A study of Mus musculus with 172 samples.

Results

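The receptors through which the cortex reads serotonin, noradrenaline, dopamine, acetylcholine, histamine and orexin were followed in the cortical transcriptome of mice that were either sleep deprived (SD) or left undisturbed (Ctr). Members were all genes of the cortex tables whose symbol starts with Htr, Adra, Adrb, Drd, Chrm, Chrn, Hrh or Hcrtr, leaving out the receptor kinases Adrbk1 and Adrbk2. This gave 42 of the 14896 genes listed: 12 serotonin (Htr), 8 adrenergic (5 Adra and 3 Adrb), 3 dopamine (Drd), 4 muscarinic (Chrm), 10 nicotinic (Chrn), 3 histamine (Hrh) and 2 orexin (Hcrtr) receptor genes. The choice went by symbol among the genes listed, from which the authors had removed genes with a mean raw count under 10. It was made with earlier results of these data known. The genes Adra2b, Htr2b, Htr3b, Drd3, Drd4, Chrm5, Hrh4, Chrna9, Chrna10, Chrnb4, Chrnd, Chrne and Chrng were not analysed here.

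Cerebral cortex was collected at ZT6, 6 h after light onset, from male mice aged 11 to 14 weeks, and SD covered those 6 h. The mice came from 33 BXD/RwwJ recombinant inbred lines, their parental strains C57BL/6J (B6) and DBA/2J (D2), and the 2 reciprocal F1 crosses, labelled C57/BL/J x DBA/2J F1 and DBA/2J x C57/BL/J F1 and called B6D2F1 and D2B6F1 here. Each library was made from RNA pooled over mice of 1 strain and condition, 1 pool per condition for each BXD line and F1 cross and 2 for each parental strain, which was sampled at both ends of a 2-year collection. That gave 39 Ctr and 39 SD pools from 37 strains, and a further 4 BXD/TyJ lines (05, 29, 29t and 32) were kept apart. Fewer mice went into the libraries of BXD79, BXD85 and BXD101, and their number for cortex was not stated. For plasma of the same collection the paper used 2, 1 and 1 mice per condition. The BXD85 and BXD101 libraries may therefore hold 1 mouse each. The spread between pools therefore holds strain, time of sampling and pooling together, and outside the parental strains these cannot be told apart.

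Values are log2 CPM (read counts scaled to the size of the library), as deposited by the authors. Reads counted to listed genes ranged from 18995492 to 28998853 in Ctr pools (median 22170272) and from 19025159 to 28685060 in SD pools (median 22713295). The receptors drew between 11.1 (Chrna1) and 5091 (Chrm1) reads per Ctr pool on average, 7 of the 42 drew fewer than 20, and no library had 0 reads for any of them. Of the marker genes, 7 of 7 for cortical excitatory and 7 of 7 for inhibitory neurons were listed, whereas 0 of 5 hypothalamic ones were. Of 5 pituitary markers 2 were listed, with a summed log2 CPM up to 5.90 in the Ctr pool of BXD100 (Ctr median 0.20). Being listed does not by itself settle the tissue. Markers of neighbouring tissue varied between pools. The summed CPM of 6 listed striatal markers ran, on the log2 scale, from 6.04 to 7.29 in Ctr (median 6.58) and from 6.22 to 7.62 in SD (median 6.88). The sum of 4 listed choroid plexus markers ran from 3.02 to 7.90 in Ctr and from 2.85 to 8.68 in SD, and that of 5 hippocampal markers from 4.23 to 5.76 and from 4.16 to 5.20. Some marker sums moved with SD: that of inhibitory neurons was higher in 39 of 39 pairs (by 0.10 on average, 4 of 7 genes called higher), that of excitatory neurons was higher in 3 of 39 (-0.10, with 3 of 7 higher and 4 lower) and that of 7 mural and meningeal markers in 0 of 39 (-0.19, 4 called lower), and their part in the receptor changes was not tested. The Ctr libraries of BXD90 and BXD56 stood apart: they held the lowest Ctr value for 9 and 8 of the 42 receptors, and for 19.6% and 7.51% of all genes.

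Most of these receptors sit in the cell membrane and signal through G proteins. Gs raises cyclic AMP, Gi/o lowers it and opens potassium channels, and Gq releases calcium from stores, while the nicotinic subunits and Htr3a form ion channels that the transmitter opens directly. Their ligands reach the cortex along fibres from small nuclei of the brain stem, basal forebrain and hypothalamus that are active in wakefulness. In the cortex these ligands help to set the arousal state. Only cortex was sampled, so receptor RNA in the cell bodies of those nuclei was not measured. Which cortical cells held the receptor RNA was not tested.

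Upstream sequences are shown for the receptors with the largest rises that had one in the promoter table, Htr1b and Hcrtr2, and for Hrh1, the only gene described in full below with one of 3 activity-linked motifs in a window. The motifs were TGACGTCA (bound by CREB), TGANTCA (bound by AP-1) and GCGTGGGCG (bound by EGR1), searched on both strands, and no TGACGTCA overlapped a TGANTCA in any window. Each line gives the 250 bases before a RefSeq transcript start on GRCm38.p6, in lower case with a motif in capitals. The Htr1b window lies at chr9:81633833-81634082 (minus strand), that of Hcrtr2 at chr9:76323624-76323873 (minus strand) and that of Hrh1, 1 of its 4 RefSeq starts, at chr6:114458272-114458521 (plus strand).
Htr1b: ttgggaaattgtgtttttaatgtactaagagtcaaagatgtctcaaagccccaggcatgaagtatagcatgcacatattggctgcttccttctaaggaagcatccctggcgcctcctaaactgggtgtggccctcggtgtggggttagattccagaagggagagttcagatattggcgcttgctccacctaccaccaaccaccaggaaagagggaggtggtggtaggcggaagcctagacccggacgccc
Hcrtr2: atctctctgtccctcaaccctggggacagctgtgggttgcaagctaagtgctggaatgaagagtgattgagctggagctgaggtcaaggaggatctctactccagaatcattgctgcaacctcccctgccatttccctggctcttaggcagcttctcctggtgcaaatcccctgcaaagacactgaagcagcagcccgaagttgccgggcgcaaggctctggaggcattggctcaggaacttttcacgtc
Hrh1: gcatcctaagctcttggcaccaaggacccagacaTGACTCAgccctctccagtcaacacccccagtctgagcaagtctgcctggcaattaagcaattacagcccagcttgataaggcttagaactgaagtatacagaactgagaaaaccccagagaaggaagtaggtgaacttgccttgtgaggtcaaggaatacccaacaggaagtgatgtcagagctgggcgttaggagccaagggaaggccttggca
A window was given for 31 of the 42 receptors and none for the other 11, among them Htr5b, Adra1d, Htr4, Htr3a, Chrm1, Chrnb3 and Adrb3. Over the 42 windows of these receptors TGACGTCA was in 0, against 1.55% of all 32851 windows. TGANTCA was in 4 (9.52%), those of Adra1b, Chrna1, Hrh1 and Htr2c, against 6.75% of all. GCGTGGGCG was in 1, that of Htr7, against 0.536% of all. These matches describe the letters in the windows and nothing more.

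Levels between genes were compared per length, as CPM per kilobase of exon, with exons taken from the protein-coding models of GENCODE vM1 on mm9. Reads were counted on RefSeq models, so these levels are approximate. In Ctr cortex Hrh3, the histamine autoreceptor that is also found on other nerve endings, was highest at 41.3 ± 4.67 CPM per kb (s.d., 39 pools). Chrm1, the main Gq-coupled muscarinic receptor of pyramidal cells, followed at 35.4 ± 2.28 and Chrm3 at 34.2 ± 3.83. Chrm1 and Chrm3 lay within a s.d. of each other, with exon models of 6271 and 1949 bases, and their closeness rests on those lengths. Adra1d (17.8 ± 1.96), Chrm4 (15.5 ± 1.30), the nicotinic subunit Chrnb2 (13.0 ± 0.825), the beta-1 adrenoceptor Adrb1 (11.4 ± 1.23) and the nicotinic subunit Chrna4 (10.3 ± 1.22) came next, and in this order Adrb1 and Chrna4 differed by less than a s.d. Htr2a led the serotonin receptors at 7.06 ± 1.19, above Htr5a at 6.09 ± 0.388 by less than a s.d., and Drd1a led the dopamine receptors at 3.66 ± 0.732. Both orexin receptors were low, with Hcrtr1 at 0.804 ± 0.210 and Hcrtr2 at 0.582 ± 0.123. The lowest was Chrna1, the muscle nicotinic subunit, at 0.110 ± 0.0372.

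**Figure D1:**
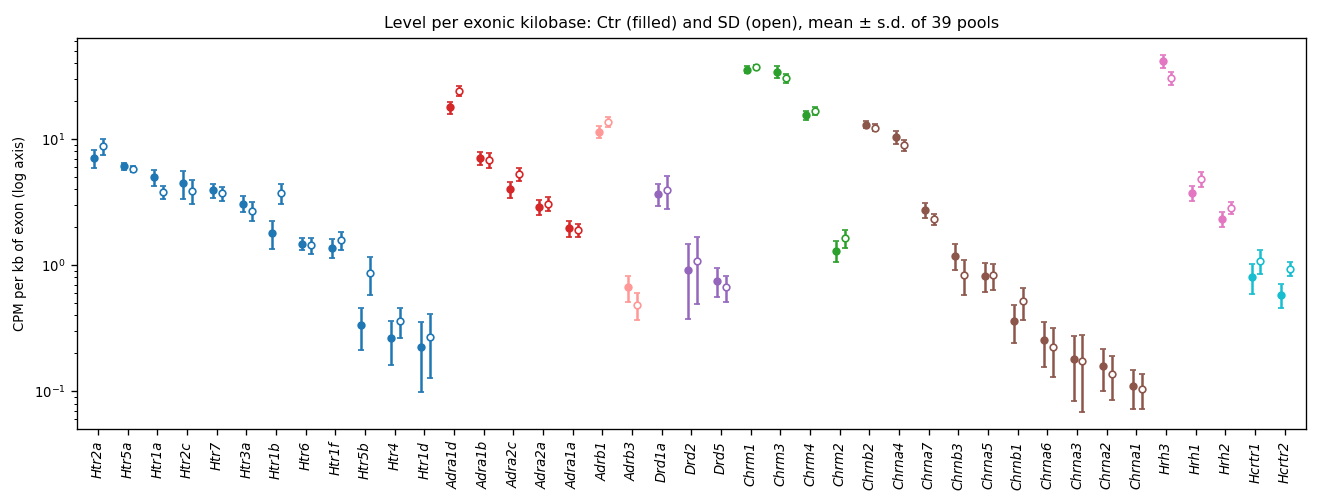
Level of the receptor genes per exonic kilobase, on a log axis of CPM per kb, with genes grouped by family and ordered by Ctr level. Filled points are Ctr and open points SD, each the mean of 39 pools with bars for 1 s.d. Hrh3 fell from 41.3 to 30.4 CPM per kb with SD, while Htr1b went from 1.79 to 3.73.

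The main comparison asked which receptor genes differed between SD and Ctr pools. The transcripts that rose most were those of 2 serotonin receptors, Htr5b (2.51-fold) and Htr1b (2.09-fold), and of the orexin receptor Hcrtr2 (1.62-fold). The largest falls were in the nicotinic subunit Chrnb3, the beta-3 adrenoceptor Adrb3, Hrh3 and Htr1a. Limma on all 14896 genes, at a Benjamini-Hochberg adjusted p below 0.05, called 16 of the 42 receptors higher and 11 lower, with 15 not called. Over all genes 68.4% were called, 33% higher and 35.4% lower, so the receptors' share of 64.3% was near the background. When each line was a replicate block, 31 of the 42 were called, against 76.3% of all genes. The median absolute log2 fold change was 0.20 over the receptors and 0.13 over all genes, and 15 of the 42 were called and moved by 0.3 or more on the log2 scale, against 18.1% of all genes. The ranges of the 39 Ctr and 39 SD pools overlapped for every receptor, and 1.4% of all genes had ranges that did not. In 5 receptors all 39 pools moved 1 way, against 11.2% of all genes. In bulk tissue, more RNA per cell and more cells of a type cannot be told apart.

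**Figure D2:**
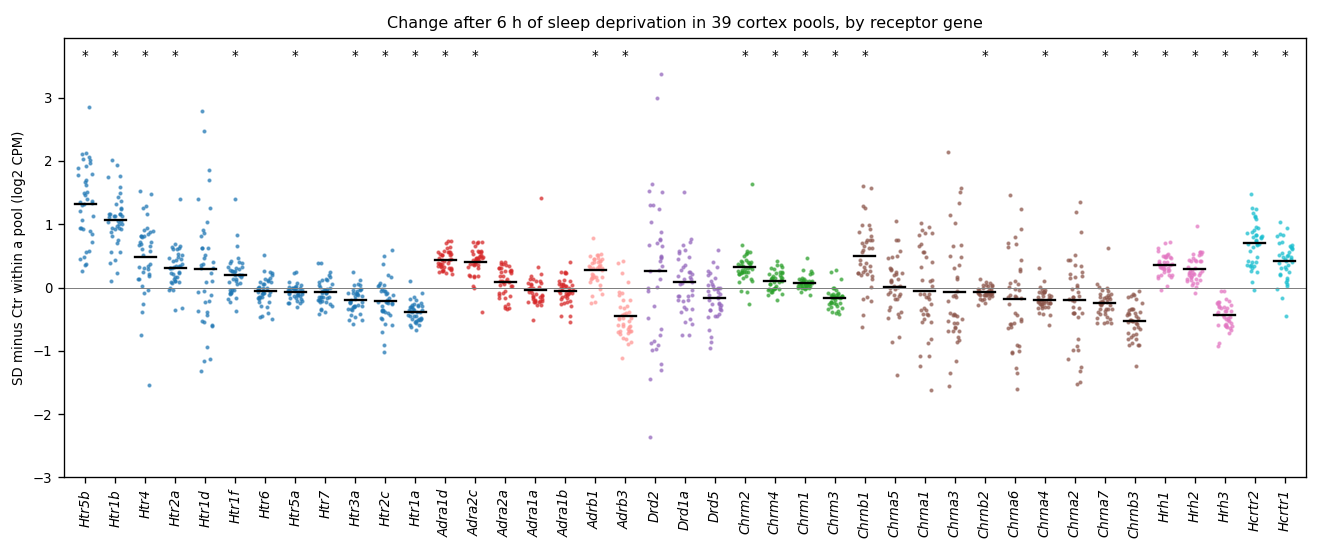
Difference between SD and Ctr (log2 CPM) within each of 39 pool pairs, for the receptor genes grouped by family. Points are pool pairs, colours are families, black bars are the mean, and an asterisk marks an adjusted p below 0.05 (limma, over 14896 genes). All points of Htr5b and Htr1b lie above 0 and all points of Chrnb3 and Hrh3 below it, while Drd2 and Htr1d scatter widely on both sides.

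The serotonin receptors moved in both directions. Of the 12 genes 5 rose, 4 fell and 3 were not called, where 68.4% of all genes were called. Their median log2 fold change was 0.07 against -0.01 over all genes. Htr5b (chr1:123406419-123425042, minus strand, mm9), a receptor with no firm place in the coupling classes, ran from -1.64 to 0.26 log2 CPM in Ctr (median -0.58) and from -0.33 to 1.66 in SD (median 0.69). Of the 39 SD pools 34 lay above the highest Ctr pool. Its log2 fold change was 1.33 ± 0.11 (SE, adjusted p = 1.54e-18) and it was higher in 39 of 39 pairs. With 15.0 reads per Ctr pool it was among the thinly counted genes, and the spread of its change over pairs (s.d. 0.61) was 1.30 times what read counting alone would give.

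Htr1b (chr9:81524950-81526222, minus strand), the Gi/o-coupled receptor on serotonin and other nerve endings, ran from 0.28 to 1.93 in Ctr (median 1.28) and from 1.75 to 2.86 in SD (median 2.23). The groups overlapped only at their edges, with 33 SD pools above the highest Ctr pool. The log2 fold change was 1.07 ± 0.071 (adjusted p = 1.32e-23), again higher in 39 of 39 pairs. On the opposite strand 852 of its 1273 exonic bases are shared with D430036J16Rik, which rose by 0.32 ± 0.070 (adjusted p = 4.68e-05), and counting by the authors was strand specific. Another Gi/o-coupled member fell. Htr1a (chr13:106233773-106238213, plus strand), the inhibitory receptor of cell bodies and dendrites, had a Ctr median of 4.45 (3.77 to 4.91) and an SD median of 4.07 (3.68 to 4.48). It was lower in 38 of 39 pairs and fell by 0.38 ± 0.044 on the log2 scale (adjusted p = 1.97e-12), so that SD pools filled the lower part of the Ctr range. BXD56, whose Ctr library stood apart, was the exception. Htr1f rose by 0.19 ± 0.058 (28 of 39 pairs), Htr5a fell by 0.07 ± 0.021 (31 of 39) and Htr1d, with 15.8 reads per pool, was not called (0.29 ± 0.16, adjusted p = 0.109).

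Htr2a (chr14:75040647-75106666, plus strand), the Gq-coupled receptor of pyramidal cells and target of psychedelic drugs, ran from 3.39 to 4.87 in Ctr (median 4.39) and from 4.15 to 5.07 in SD (median 4.69). It rose by 0.31 ± 0.055 (adjusted p = 5.24e-07) and in 34 of 39 pairs, with broad overlap between conditions. Its Gq-coupled relative Htr2c, abundant in choroid plexus, went the other way and fell by 0.21 ± 0.071 (adjusted p = 0.00774, lower in 30 of 39). None of the 4 choroid plexus markers was called, and the mean change of their sum was -0.35 with a s.d. of 1.95 over pairs. Htr3a (chr9:48707319-48719204, minus strand), the ion channel member, carried by a class of cortical interneurons, had medians of 2.67 in Ctr (2.18 to 3.09) and 2.49 in SD (1.94 to 3.02). It fell by 0.19 ± 0.051 (adjusted p = 0.000469, 34 of 39 pairs), while the sum of 7 inhibitory neuron markers was higher in 39 of 39 pairs. Htr4 (chr18:62483858-62627456, plus strand), coupled to Gs, ran from -0.56 to 1.43 in Ctr (median 0.23) and from -0.11 to 1.65 in SD (median 0.76). It rose by 0.49 ± 0.096 (adjusted p = 5.84e-06) in 33 of 39 pairs, and the ranges overlapped almost fully. The Gs-coupled Htr6 and Htr7 were not called, and Htr7 passed in the blocked fit (-0.07, adjusted p = 0.0336).

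Among the 8 adrenergic receptors 3 rose, 1 fell and 4 were not called, where 68.4% of all genes were called. Their median log2 fold change was 0.09. Adra1d (chr2:131371586-131388021, minus strand), coupled to Gq and the most abundant of them, ran from 4.72 to 5.37 in Ctr (median 5.10) and from 5.15 to 5.74 in SD (median 5.53). Of the SD pools 33 lay above all Ctr pools. The rise was 0.43 ± 0.033 (adjusted p = 1.62e-20) in 39 of 39 pairs, with pairs between 0.21 (BXD89) and 0.74 (BXD48). Its Gq-coupled relatives Adra1a (-0.03 ± 0.052) and Adra1b (-0.05 ± 0.039) were not called. The alpha-2 receptors, which restrain noradrenaline release, are Gi/o-coupled. Adra2c (chr5:35621215-35624410, plus strand) had medians of 3.67 in Ctr (3.05 to 4.14) and 4.09 in SD (3.70 to 4.38), and rose by 0.41 ± 0.044 (adjusted p = 1.25e-13, 37 of 39 pairs). Adra2a was higher in 27 of 39 pairs by 0.09 ± 0.041, which missed the threshold (adjusted p = 0.0511) and passed it in the blocked fit (adjusted p = 0.0187).

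The Gs-coupled beta adrenoceptors split. Adrb1 (chr19:56796862-56799352, plus strand), the main cortical beta receptor, ran from 4.29 to 5.15 in Ctr (median 4.80) and from 4.74 to 5.41 in SD (median 5.11). It rose by 0.27 ± 0.034 (adjusted p = 3.47e-11), in 34 of 39 pairs, and 14 SD pools exceeded every Ctr pool. Adrb3 (chr8:28336248-28340060, minus strand), better known from fat tissue, ran from 0.15 to 1.58 in Ctr (median 0.95) and from -0.30 to 1.15 in SD (median 0.51). It fell by 0.45 ± 0.077 (adjusted p = 2.79e-07) in 35 of 39 pairs, and the spread of its change was no larger than that expected from counting 44.2 reads per Ctr pool (ratio 0.999).

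None of the 3 dopamine receptors was called, where 68.4% of all genes were, and the values of Drd1a and Drd2 moved with striatal markers. Drd1a (chr13:54146555-54151027, minus strand), the Gs-coupled receptor, had medians of 3.72 in Ctr (3.16 to 4.18) and 3.71 in SD (3.09 to 4.72), with a log2 fold change of 0.08 ± 0.077 (adjusted p = 0.36). Drd2, its Gi/o-coupled counterpart of the striatum, spread from -1.61 to 2.55 in Ctr (median 0.94) and from -0.61 to 2.82 in SD (median 1.52), with a log2 fold change of 0.26 ± 0.20 (adjusted p = 0.261). The pairwise change of Drd2 ran from -2.36 in BXD43 to 3.38 in BXD55, with a s.d. 3.55 times that of read counting. Drd5 was lower in 28 of 39 pairs by 0.16 ± 0.076 on the log2 scale (adjusted p = 0.0522), and was called with the replicate block (adjusted p = 0.00618).

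The relation to neighbouring tissue was examined for every receptor against the striatal, choroid plexus and hippocampal marker sums, for the Ctr level and for the SD minus Ctr change over 37 strains, 252 relations in all, with permutation tests of 100000 resamples and Benjamini-Hochberg adjustment over all of them. The change of Drd1a followed the striatal sum with Pearson's r = 0.92 (p = 1e-05, adjusted 0.00036) and Spearman's rho = 0.91 (p = 1e-05, adjusted 0.00042), and 1e-05 is the smallest p these permutations can give. Without the 2 strains farthest from the median r was 0.89. For Drd2 r was 0.92 and rho 0.93 (both permutation p = 1e-05, adjusted 0.00036 and 0.00042), and 0.90 without 2 strains. Htr1d (r = 0.71, rho = 0.65), Htr4 (r = 0.59, rho = 0.61) and Htr2c (r = 0.59, rho = 0.50) also passed, with adjusted permutation p of at most 0.0367, and kept r of 0.63, 0.58 and 0.45 without 2 strains. In Ctr levels 3 receptors passed with the striatal sum, Drd1a (r = 0.81, rho = 0.78), Drd2 (r = 0.85, rho = 0.84) and Htr1d (r = 0.63, rho = 0.67). With the hippocampal sum Htr4 (r = 0.74, rho = 0.52) and Drd5 (r = 0.64, rho = 0.53) passed, with adjusted permutation p of at most 0.0296, and no receptor passed with the choroid plexus sum on both measures.

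The striatal sum itself was higher in SD in 29 of 39 pairs, by 0.21 on average with a s.d. of 0.43, and of its 6 genes 2 rose (Rgs9 among them), 1 fell (Gpr6) and 3 were not called. With that sum as a covariate, an alternative added after the data were seen, the log2 fold change of Drd1a went from 0.08 to -0.09 (adjusted p = 0.0499) and that of Drd2 from 0.26 to -0.18 (adjusted p = 0.176). Htr1b (1.06), Htr5b (1.32), Hcrtr2 (0.71), Htr4 (0.43) and Adra2c (0.36) stayed called under it. Htr1b had r = 0.45 with the striatal change, which did not pass (permutation p = 0.00562, adjusted 0.0885).

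**Figure D3:**
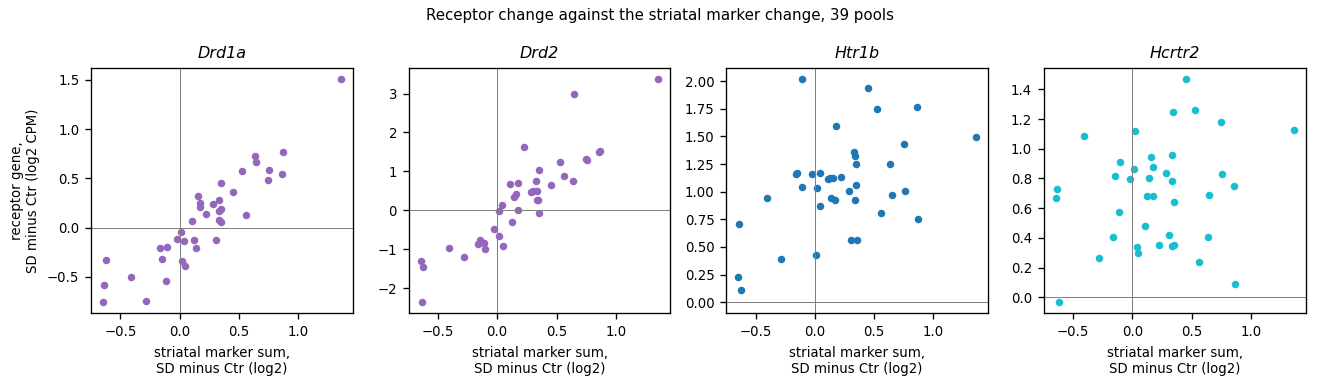
Change of 4 receptor genes (SD minus Ctr, log2 CPM) against the change of the summed striatal markers (log2), 1 point per pool pair (39 pairs). Drd1a and Drd2 climb with the striatal sum, Htr1b lies above 0 in all 39 pairs and Hcrtr2 is scattered (r = 0.18 over 37 strains).

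All 4 muscarinic receptors were called, 3 higher and 1 lower, where 68.4% of all genes were called, but the changes were mostly small. Chrm2 (chr6:36338084-36478414, plus strand) is a Gi/o-coupled receptor known as an autoreceptor of cholinergic endings. It ran from 1.75 to 3.27 in Ctr (median 2.94) and from 2.59 to 3.59 in SD (median 3.21). It rose by 0.33 ± 0.060 (adjusted p = 1.61e-06) in 36 of 39 pairs, and its largest change, 1.63, came from BXD90. Chrm1 (chr19:8738495-8758077, plus strand) had medians of 7.80 in Ctr (7.38 to 7.92) and 7.88 in SD (7.75 to 7.99). Its rise was 0.08 ± 0.018 (adjusted p = 0.00014, 31 of 39 pairs), a 1.06-fold change, and the spread of its change over pairs was 3.71 times that of counting. Chrm4 rose by 0.11 ± 0.027 (adjusted p = 0.000291) and Chrm3 fell by 0.16 ± 0.034 (adjusted p = 1.51e-05, 36 of 39 pairs).

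Of the 10 nicotinic subunits 4 were called lower, 1 higher and 5 not, where 35.4% of all genes were called lower and 33% higher, and their median log2 fold change was -0.13. The subunits of the main cortical receptors all fell. Chrna7, which forms channels by itself, fell by 0.25 ± 0.042, Chrna4 by 0.19 ± 0.036 and its partner Chrnb2 by 0.07 ± 0.020 (adjusted p = 2.64e-07, 2.01e-06 and 0.000865), in 36, 36 and 31 of 39 pairs. Chrnb2 (chr3:89557370-89568554, minus strand) had medians of 6.15 in Ctr (5.88 to 6.29) and 6.05 in SD (5.84 to 6.21), so the groups shared most of their range. Chrnb3 (chr8:28479183-28510201, plus strand), an accessory subunit, ran from 1.74 to 3.08 in Ctr (median 2.43) and from 1.13 to 2.89 in SD (median 1.87). It fell in 39 of 39 pairs by 0.52 ± 0.087 (adjusted p = 1.44e-07), and 15 SD pools lay below all Ctr pools. Chrnb1 (chr11:69597538-69609445, minus strand), a subunit of the muscle receptor, rose from a median of -0.27 (-1.58 to 0.85) to 0.10 (-1.18 to 1.10). Its log2 fold change was 0.49 ± 0.10 (adjusted p = 9.77e-06), in 34 of 39 pairs, at 17.9 reads per Ctr pool and with the spread of the change at 1.08 times that of counting.

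The histamine receptors were all called, where 68.4% of all genes were, and differed in direction. Hrh3 (chr2:179834170-179839193, minus strand), coupled to Gi/o, ran from 6.56 to 7.16 in Ctr (median 6.79) and from 5.97 to 6.74 in SD (median 6.35). It fell in 39 of 39 pairs, 34 SD pools lay below every Ctr pool, and the log2 fold change was -0.44 ± 0.037 (adjusted p = 1.06e-18). The spread of its change, 0.20, was 4.53 times that of counting. Hrh1 (chr6:114347930-114433290, plus strand), the Gq-coupled target of sedating antihistamines, rose from a median of 4.14 (3.61 to 4.34) to 4.45 (3.99 to 4.80). The rise was 0.36 ± 0.046 (adjusted p = 5.1e-11), in 38 of 39 pairs, with 25 SD pools above all Ctr pools. Its Gs-coupled relative Hrh2 rose by 0.29 ± 0.042 (adjusted p = 2.73e-09), also in 38 of 39 pairs.

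Both orexin receptors, which couple to Gq and receive the wake-promoting peptides of the lateral hypothalamus, rose. Hcrtr2 (chr9:76073710-76171385, minus strand) ran from 0.28 to 1.79 in Ctr (median 1.09) and from 1.46 to 2.23 in SD (median 1.78). The rise was 0.70 ± 0.056 (adjusted p = 1.81e-19) in 38 of 39 pairs, and 18 SD pools exceeded every Ctr pool. Hcrtr1 (chr4:129807461-129816603, minus strand) had medians of 1.06 in Ctr (0.50 to 2.19) and 1.52 in SD (0.86 to 2.17). It rose by 0.42 ± 0.070 (adjusted p = 1.36e-07) in 36 of 39 pairs, and no SD pool exceeded the highest Ctr pool, that of BXD56. The mean reads per Ctr pool were 48.1 for Hcrtr1 and 49.4 for Hcrtr2, so each pair's own change rests on few reads. The peptide gene Hcrt had no row in these cortex tables.

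Grouped by coupling, 6 of 10 Gq receptors rose and 2 fell (median log2 fold change 0.20), 5 of 11 Gi/o receptors rose and 3 fell (0.19), 3 of 9 Gs receptors rose and 1 fell (0.08), and 1 of 11 ion channel genes rose and 5 fell (-0.19). Over all genes 33% rose and 35.4% fell, and the median was -0.01.

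Genes that make, move or break down the transmitters were called no more often than the 68.4% of all genes. Of 11 listed genes for monoamines 2 rose and 4 fell, with a median log2 fold change of -0.14. Gch1, which makes the cofactor of monoamine synthesis, rose by 0.66 ± 0.079. Slc22a3, a low-affinity transporter of monoamines, fell by 0.89 ± 0.12, Maoa by 0.44 ± 0.022, Ddc by 0.43 ± 0.065 and the histamine-degrading Hnmt by 0.26 ± 0.029. Of 10 listed genes for acetylcholine 2 rose and 4 fell, with a median of -0.06. Colq, which anchors acetylcholinesterase, rose by 1.09 ± 0.12 and Chat, the synthesising enzyme, by 0.56 ± 0.14, while the esterases Bche and Ache fell by 0.63 ± 0.080 and 0.26 ± 0.032, Ric3 by 0.11 ± 0.013 and Lynx1 by 0.07 ± 0.024. The adjusted p of the genes named here lay between 3.06e-31 (Maoa) and 0.00878 (Lynx1). Downstream, 5 of 12 G-protein alpha subunits rose and 3 fell (median 0.03), 3 of 7 receptor kinases and arrestins rose and 0 fell (0.04), and 5 of 16 regulators of G-protein signalling rose and 5 fell (0.02).

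The response differed between pools, and BXD89 was at the low end. Of the 15 receptors called and moved by 0.3 or more, its change in the common direction was the smallest of 39 for 6, and so it was for 28.7% of the 2694 genes past the same limits. Its median change was 0.130 times the mean for those receptors and 0.326 times for those genes. For Htr1b its Ctr value of 1.77 was the second highest of 37 strains and its SD value of 1.87 the fourth lowest, 0.11 apart. For Hcrtr2 its SD value of 1.46 was lower than its Ctr value, by 0.033. Hrh3 was at 6.80 in Ctr and 6.74 in SD, the highest SD value of all. Its striatal marker sum was 7.08 in Ctr and 6.46 in SD. The cause was not tested, and leaving the line out gave 17 receptors called higher and 11 lower. BXD90 held the largest change for 4 of the 15 and for 12.4% of the 2694 genes, and BXD56 the smallest for 3 and for 10.6%. Without BXD56 and BXD90, chosen after the data were seen, 16 were higher and 13 lower.

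In the 4 BXD/TyJ lines, which entered none of the tests above, 13 of those 15 receptors changed in the same direction in all 4. Of all 27 called receptors 19 did so, and the share over all genes was not computed. Htr5b rose by 2.19, 0.79, 1.53 and 0.80 in lines 05, 29, 29t and 32, and Htr1b by 0.81, 1.00, 0.94 and 0.82. Hcrtr2 rose by 0.42, 0.21, 0.44 and 0.37, below the mean of the 39 pairs in each line. Hrh3 fell by 0.53, 0.25, 0.18 and 0.37. The exceptions among the 15 were Adrb3 and Htr4, both opposite in line 29 alone, with changes of 0.28 and -0.58.

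The second comparison asked whether receptor levels differed between strains, with condition in the model and both pools of a strain serving as its repeats. Line differences were called for 27 of the 42 receptors (64.3%), against 55.5% of all genes. The F value was largest for Chrnb3 (F = 8.23, adjusted p = 5.21e-10), followed by Htr1a (5.93, 1.1e-07), Hrh1 (5.78, 1.62e-07), Htr3a (4.78, 2.68e-06) and Adra1d (3.75, 6.34e-05). By contrast Hcrtr2 (F = 1.08, adjusted p = 0.441), Htr1b (1.48, 0.142) and Adrb1 (1.06, 0.46), which changed with SD, were not called between strains. Disagreement between the pools of a strain is the error of this test, so this does not show equal levels. The lowest Ctr values came from libraries that stood apart, BXD90 for Hcrtr2 and Htr1b (0.28 each) and BXD56 for Adrb1 (4.29). Hcrtr2 and Htr1b drew 49.4 and 52.2 reads per Ctr pool. Hcrtr1 was called (3.17, adjusted p = 0.000439).

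Chrnb3 was lowest in BXD48, at 1.74 in Ctr and 1.22 in SD, and highest in BXD51, at 2.94 and 2.89, a 2.70-fold range of strain means. B6 (2.07) lay below D2 (2.62) and both F1 crosses fell between them (2.32 and 2.30). Of the 33 BXD lines 16 were below both parents, 14 between and 3 above. Htr1a was lowest in BXD56 (3.77 and 3.87) and highest in BXD81 (4.91 and 4.41), and 22 lines were below both parents. Hrh1 was lowest in BXD84 (3.71 and 4.07) and highest in BXD55 (4.28 and 4.80), and 26 of 33 lines lay between B6 (4.39) and D2 (3.92). Htr3a ran from BXD85 (2.18 and 1.94) to BXD75 (2.97 and 3.02), with 21 lines above both parents, which differed from each other by 0.051 ± 0.096 (adjusted p = 0.751). Adra1d ran from BXD90 (4.86 and 5.15) to B6 itself (5.37 and 5.72), with no line above B6.

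**Figure D4:**
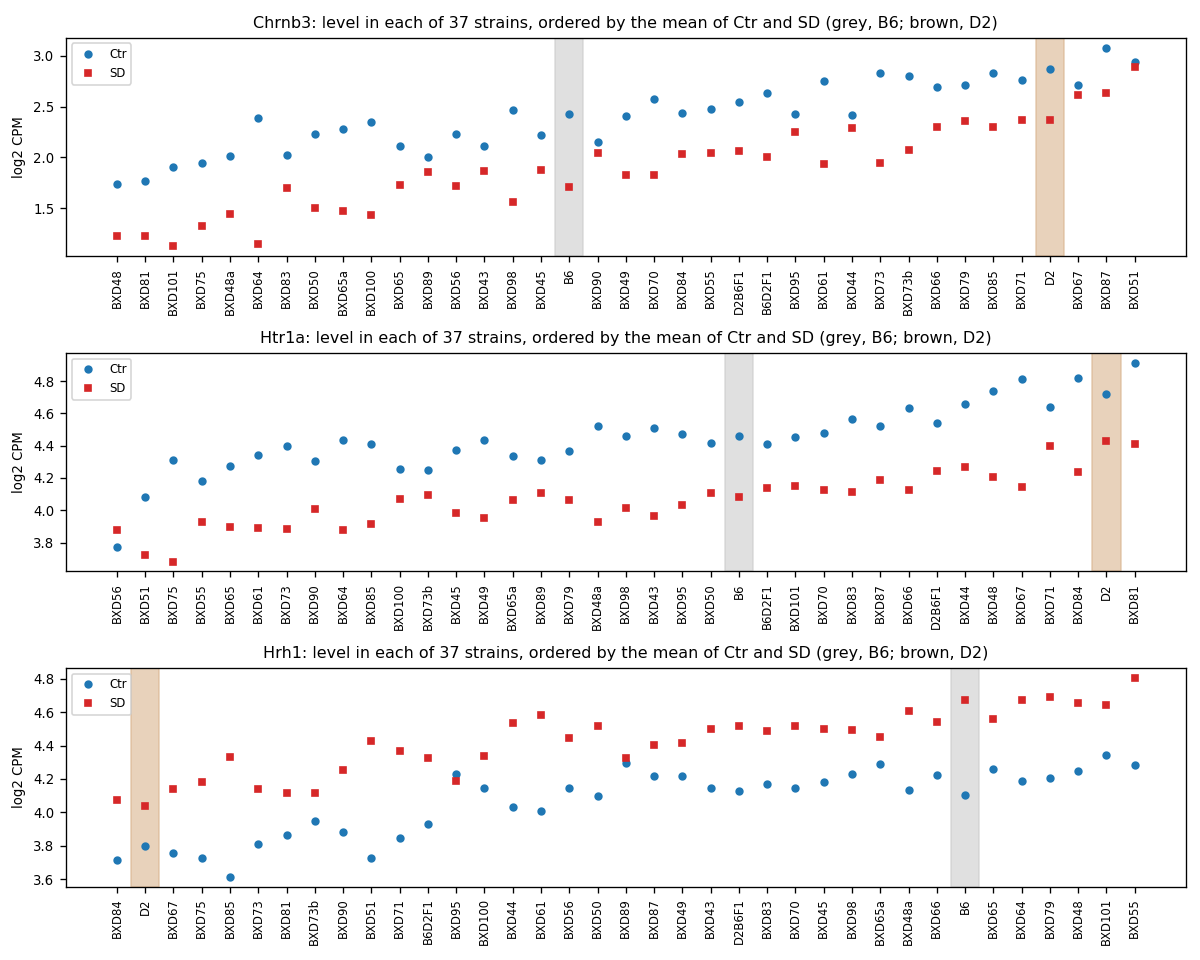
Levels of Chrnb3, Htr1a and Hrh1 (log2 CPM) in 37 strains, ordered by the mean of Ctr (circles) and SD (squares), with B6 shaded grey and D2 brown, and parental pools averaged. SD lies below Ctr in every strain for Chrnb3, in all but BXD56 for Htr1a, and above Ctr in all but BXD95 for Hrh1, while the order of strains spans 1.43, 0.84 and 0.65 log2 units.

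The parental strains were compared in the same model. D2 differed from B6 for 12 of the 42 receptors (28.6%), against 26.8% of all genes, and 6 were higher and 6 lower in D2. Hrh1 had the smallest adjusted p. It read 4.04 and 4.17 in the B6 Ctr pools and 4.67 and 4.67 in the B6 SD pools, and 3.71 and 3.89 in D2 Ctr and 3.99 and 4.08 in D2 SD, a difference of -0.47 ± 0.080 (adjusted p = 5.11e-06). The D2 values were below the B6 values in both conditions. Chrnb3 was higher in D2 by 0.55 ± 0.13 (adjusted p = 0.00092), with 2.60 and 2.25 in B6 Ctr and 2.95 and 2.79 in D2 Ctr. Adra1d was lower in D2 by 0.30 ± 0.069 (adjusted p = 0.000667), and Adra1b by 0.35 ± 0.095 (0.00364). Htr7 was higher by 0.38 ± 0.098 (0.00246) and Htr1a by 0.31 ± 0.076 (0.00166). Chrnb1 (-0.77 ± 0.24, adjusted p = 0.0138) and Adrb3 (-0.56 ± 0.17, 0.013) were lower in D2, at few reads. Chrna4, Chrnb2 and Hrh2 were higher by 0.22, 0.13 and 0.27 and Chrm3 lower by 0.20, with adjusted p between 0.02 and 0.0397. The calls of Chrm3, Hrh2, Chrna4, Chrnb2, Chrnb1 and Adrb3 were lost when single parental libraries were left out. Without the B6-1 SD library the difference for Chrna4 was 0.12 (adjusted p = 0.259). Reads of all strains were aligned to mm9, which is built from C57BL/6J, and the part of allele-dependent mapping in these differences was not tested.

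**Figure D5:**
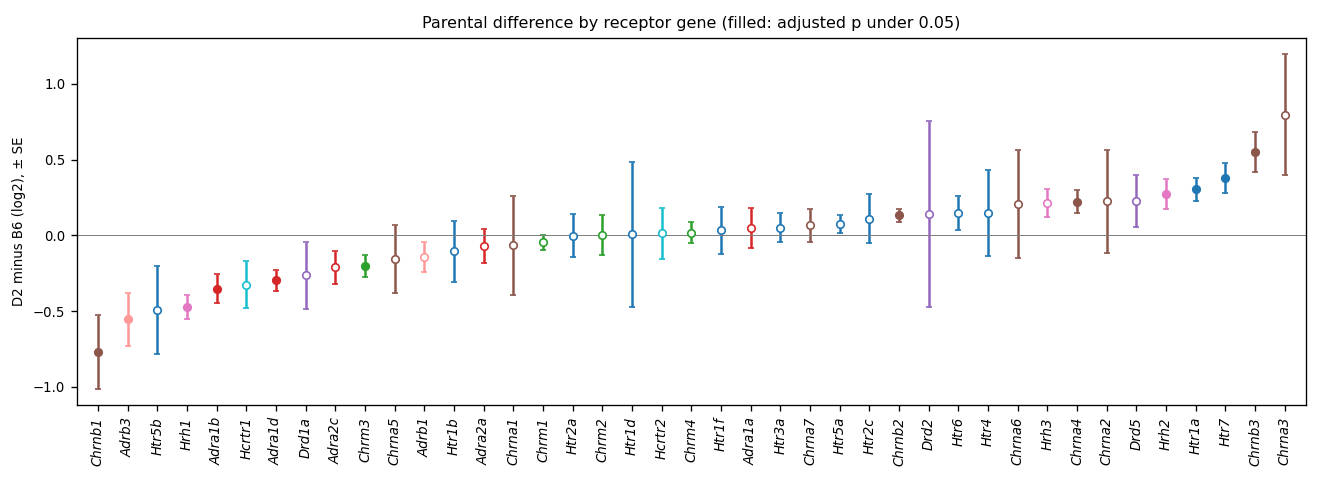
Difference between D2 and B6 (log2) for the receptor genes, ordered by size and coloured by family, with bars for 1 SE from the model on 78 libraries and filled points where the adjusted p was below 0.05. Chrnb1 (-0.77) and Chrnb3 (0.55) are the extremes among the called genes, and Chrna3 (0.79 ± 0.40) is larger but was not called.

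Whether SD acted differently in the 2 parental strains was tested on the pairwise changes. Limma called 0 of the 42 receptors at an adjusted p below 0.05 (smallest 0.875), 3 had an unadjusted p below 0.05, and over all genes 0.00671% were called. For Hrh1 the change in D2 minus that in B6 was -0.33 ± 0.16 (adjusted p = 0.998). With 2 pairs per strain the SE of this difference was 0.272 for Chrnb3 and 0.496 for Chrnb1, so differences of that size were not detectable here.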

How the data were processed

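Cortex RNA-seq of 78 libraries entered the comparisons (39 Ctr and 39 SD pools), and 8 libraries of BXD/TyJ lines were kept apart. Liver was not used. Values of 1 receptor and some other single genes are not reported here or plotted. Per the study's methods and the submitters' notes, stranded libraries were checked with FastQC, aligned with STAR to mm9, and counted per RefSeq gene with HTSeq on the reverse strand. Genes with a mean raw count under 10 were removed, and the authors used edgeR for TMM scaling. The deposited values are log2 CPM. That the Ctr and SD tables were scaled together was inferred from the scaling factors recovered from the values. Their geometric mean was 1.00045 over 86 libraries, 1.00917 in Ctr and 0.992 in SD. As mm9 is built from C57BL/6J, DBA/2J alleles may map less well. Whole reads could be recovered from the log2 values for 100% of them (tolerance 0.02 reads), which gave the depth per library.

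Tests used limma 3.58.1 in R 4.3.3 with a trended variance on log2 CPM of all 14896 genes, with Benjamini-Hochberg adjustment over all of them and a threshold of 0.05. SD was compared with Ctr over pools without a block, lines by an F test with condition in the model, and D2 with B6 as a contrast of that model. The study fitted read counts with voom, which was run on the recovered reads as an alternative, since the deposited unit is log2 CPM. Pools are the replicates, so p-values measure the spread between pools. Each strain's Ctr and SD pools carry the same label: deviations from the group means correlated within a line (lowest 0.30, median 0.61) and not between lines (median -0.02), so the labels pair the pools, and a fit with the line as a replicate block was made. Permutation tests used scipy 1.17.1. Changes are given per pool with s.d. for standard deviation and SE for standard error.

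Full values are given for receptors called and moved by 0.3 or more (log2), the highest per exonic length in each family, both orexin receptors, and the 5 with the largest line F. Members and lists were chosen with earlier results of these data known. The models were tested on simulated data, drawn as independent counts with the same extra spread for every gene. Those data held no libraries that stood apart and no variation in neighbouring tissue. The simulation therefore does not cover these features of the real pools. Other normalizations, filters, pool sets, voom, a marker covariate and leaving out pools were tried as alternatives.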

Additional observations from a re-analysis of the deposited data

Results flagged for a closer look

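In 4 of the 42 receptors 1 of the 4 BXD/TyJ lines lay far from the other three in its SD minus Ctr change, where chance alone sets a line apart in about 1 in 20 such groups. Adrb1 rose by 0.42 in line 29, against 0.25 to 0.27 in the others. Chrna1 changed by -0.57 in line 29, against 0.08 to 0.19, and drew few reads. Drd5 changed by -0.56 in line 29, against 0.06 to 0.17. Chrnb2 changed by -0.16 in line 29t, against -0.02 to 0.00. Each line is 1 pool per condition, and these lines entered none of the tests.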

How the results depend on the processing

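Each receptor called between SD and Ctr kept its call and direction under the other settings run, except that Chrnb1 was left out by the filter on a mean log2 CPM of at least 0, with 15 to 19 receptors higher and 11 to 13 lower, and over single left-out lines 16 to 18 higher and 11 to 12 lower. With the line as a replicate block 18 rose and 13 fell, with Adra2a, Drd5 and Htr7 among those added. The direction turned for receptors not called in the comparison itself: under quantile normalization for Chrna1 (0.072), Chrna3 (0.046) and Htr6 (0.015), in the 33 BXD/RwwJ lines alone for Chrna1 (0.014), and with the striatal covariate for Adra1a (0.011), Drd1a (-0.091, adjusted p = 0.0499 from limma) and Drd2 (-0.18). Over single left-out lines the direction turned for Chrna5, also not called, in 5 of them, with log2 fold changes from -0.015 to 0.049. The cause was not tested. The covariate and the sets without BXD56 and BXD90 or without 11 lines high in striatal or choroid plexus markers were chosen after seeing the data. Line differences were called for 22 to 29 receptors. D2 and B6 differed for 11 to 13, and for 8 to 11 without single parental libraries. Hrh1, Adra1d, Chrnb3, Htr1a, Htr7 and Adra1b kept that call throughout. Chrm3 lost it without B6-1, B6-2 or D2-2 Ctr and B6-2 or D2-1 SD, and with centred libraries (-0.19). Hrh2 lost it without B6-1, D2-1 or D2-2 Ctr and B6-2 or D2-1 SD. Chrna4 lost it without D2-2 Ctr and B6-1 or D2-2 SD, Chrnb2 without B6-1, D2-1 or D2-2 SD, Chrnb1 without D2-2 Ctr or B6-1 SD, and Adrb3 without D2-1 Ctr. The 7 receptors under 20 reads per pool bound the changes that depth can show.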
